A study of Mus musculus with 30 samples.

Results

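The catalytic subunits of the mouse proteasome and the PA28 activators were followed across 24 bulk RNA sequencing libraries. The members were taken as a fixed list of 9 genes out of 49315 counted. They are the constitutive catalytic subunits Psmb5, Psmb6 and Psmb7, the inducible catalytic subunits Psmb8, Psmb9 and Psmb10, and the PA28 genes Psme1, Psme2 and Psme3. All 9 were found by symbol and passed the filter on low counts (a sum of 10 reads or more across libraries), which 21138 genes did.

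The proteasome degrades ubiquitin-tagged proteins in a barrel-shaped core whose inner rings carry the catalytic beta subunits. In cells exposed to interferon, newly made cores can take up Psmb8 in place of Psmb5, Psmb9 in place of Psmb6 and Psmb10 in place of Psmb7. The resulting immunoproteasome favours cuts that leave peptide ends suited to binding by MHC class I molecules. PA28 caps the ends of the core, with Psme1 and Psme2 forming the cytoplasmic activator and Psme3 forming a separate nuclear one.

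B16F10, a mouse melanoma line, and 6694c2, a mouse pancreatic ductal adenocarcinoma line, were compared. The 6694c2 cells were derived from female mice whose alleles included p53+/floxed, a Pdx-cre transgene, in which Cre is driven by a pancreatic promoter, and YFP-floxed, and both lines carry the genotype label C57BL/6. Within each line 3 libraries were made from cells cultured for 24 h with vehicle (given as no treatment in the labels), with 100 ng/mL of IFNγ, with 1000 U/mL of IFNβ or with 225 μg/mL of STING agonist. The experiment asked how tumor cells respond directly to the STING agonist. The labels do not say whether the 3 libraries of a group came from separate cultures, so p-values measure only the spread between these libraries.

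Between 15543131 and 32266795 reads were counted on genes per library. The closest pair of replicate libraries still had a chi-square of 2.99 per degree of freedom over genes, above sampling noise. The summed level of 7 melanocyte markers was 18400 to 18500 CPM (counts per 1000000 reads of the TMM-normalized library size) in B16F10 vehicle libraries and 83.9 to 87.2 CPM in 6694c2 vehicle libraries. The summed level of 6 epithelial markers was 13900 to 14800 CPM in 6694c2 vehicle libraries and 13.6 to 19.3 CPM in B16F10 vehicle libraries. These values fit the labelled lines, with marker genes of the other line read at low levels, the source of which was not tested. In the B16F10 libraries with STING agonist the epithelial sum was 102 to 135 CPM, and its mean was 0.815% of that in 6694c2 vehicle libraries. The melanocyte sum in 6694c2 libraries ranged from 35.8 to 129 CPM with IFNγ and was lowest with STING agonist, at 18.5 to 22.3 CPM. Summed levels of 6 immune cell markers did not exceed 11.7 CPM in any library.

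The 3 constitutive subunits stayed at steady levels in all groups. Psmb5, which carries the chymotrypsin-like activity of the standard core, ranged from 170 to 224 CPM over the B16F10 libraries and from 150 to 181 CPM over the 6694c2 libraries. Psmb6, the caspase-like subunit, ranged from 201 to 256 CPM in B16F10 and from 229 to 324 CPM in 6694c2. Psmb7, the trypsin-like subunit, ranged from 258 to 316 CPM in B16F10 and from 173 to 225 CPM in 6694c2. Within a line the highest library of each gene was at most 1.41-fold above the lowest.

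With vehicle the inducible subunits were low, Psmb8 and Psmb9 far more so than Psmb10. Per kilobase of exon length the means in B16F10 were 20.7 CPM for Psmb10, 0.364 CPM for Psmb8 and 0.325 CPM for Psmb9. In plain CPM, Psmb10 was read at 36.6, 34 and 35.3 CPM in the B16F10 vehicle libraries and at 19.3, 22 and 20.6 CPM in those of 6694c2. Psmb8 was at 1.05, 0.923 and 1.02 CPM in B16F10 and at 2.22, 1.62 and 0.914 CPM in 6694c2. Psmb9 was at 0.957, 1.2 and 1.41 CPM in B16F10 and at 1.34, 0.614 and 0.792 CPM in 6694c2. Psmb8 and Psmb9 therefore rested on few reads with vehicle, from 15 to 38 reads per library for Psmb8 and from 11 to 36 for Psmb9, whereas Psmb10 had 330 reads or more.

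**Figure D1:**
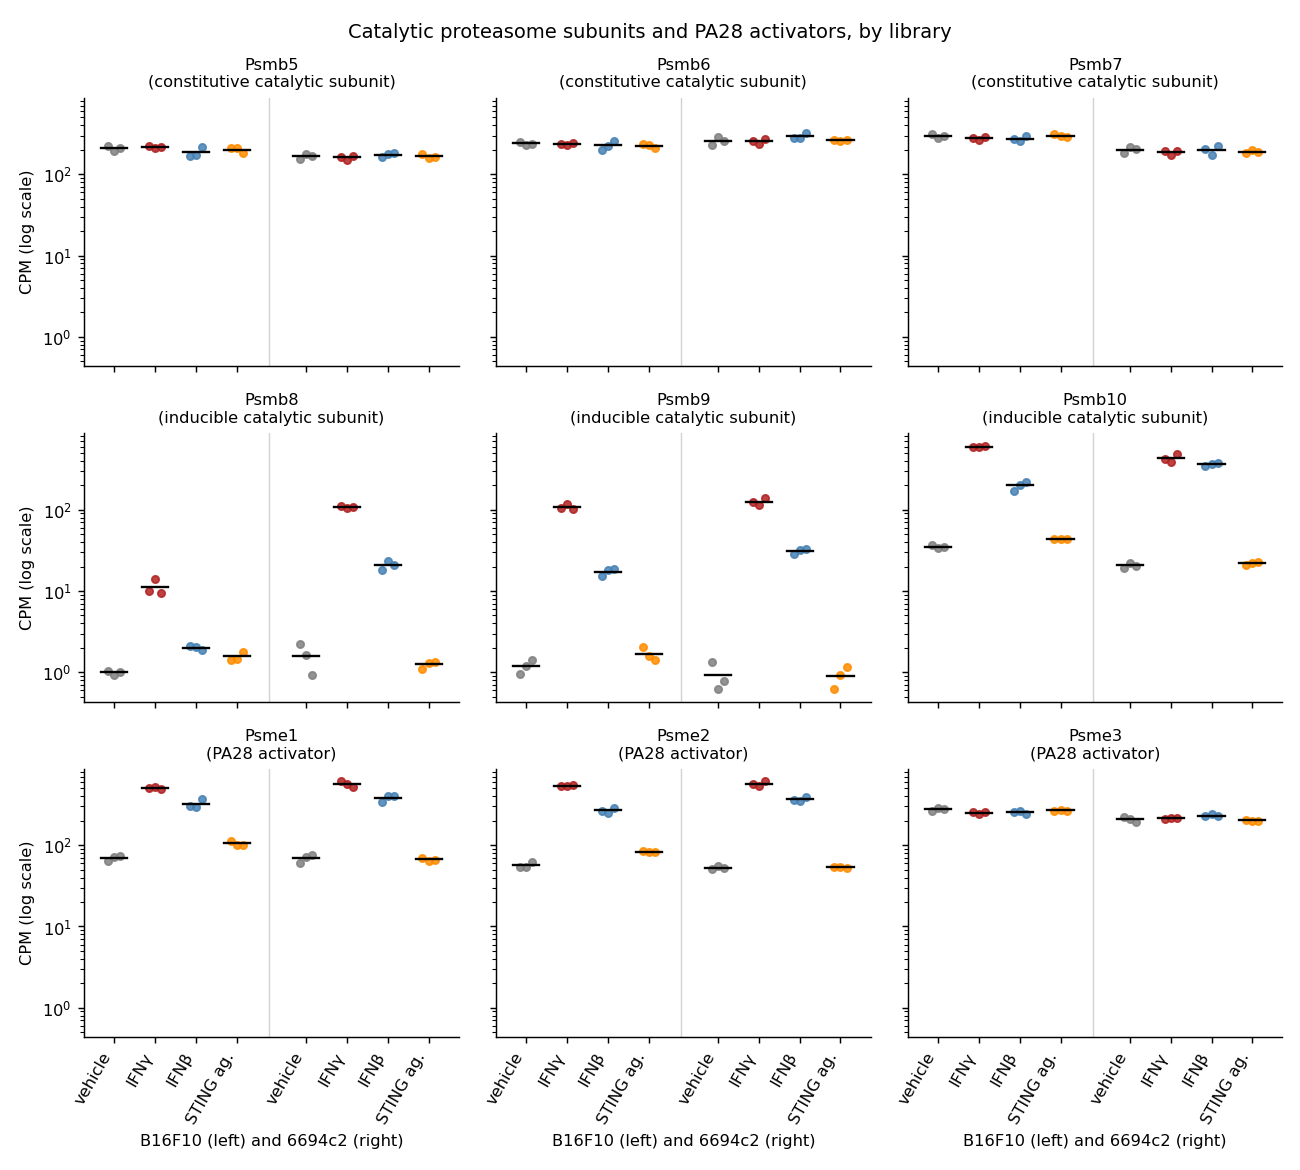
Level of each gene in every library, in CPM on a log axis, with the 4 treatments of B16F10 on the left and of 6694c2 on the right of each panel. Points are single libraries and black lines are means of 3. Psmb5, Psmb6, Psmb7 and Psme3 stay level across the groups, while Psmb8, Psmb9, Psmb10, Psme1 and Psme2 rise with IFNγ and IFNβ in both lines. Psmb8 reaches a mean of 11.2 CPM with IFNγ in B16F10 and 107 CPM in 6694c2.

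The genes lie on several chromosomes (coordinates on GRCm38). Psmb8 (chromosome 17, 34197721 to 34201454, plus strand) and Psmb9 (chromosome 17, 34181988 to 34187764, minus strand) are neighbours in the MHC region, with Tap1 between them on the plus strand. In the RefSeq annotation Psmb9 and Tap1 start 226 bases apart and are read in opposite directions. In the annotation used for counting, 212 exonic bases of Psmb9 (5.79%) overlap Tap1, and without knowledge of strand in the counting, reads in that stretch cannot be assigned to 1 gene. Psme1 (chromosome 14, 55578123 to 55581529, plus strand) and Psme2 (chromosome 14, 55587441 to 55591113, minus strand) are also close neighbours. Psmb10 lies on chromosome 8 from 105935735 to 105938444 and Psmb5 on chromosome 14 from 54614120 to 54617995, both on the minus strand. Psmb6 is on chromosome 11 from 70525367 to 70527858 and Psme3 on chromosome 11 from 101316213 to 101323537, both on the plus strand. Psmb7 (chromosome 2, 38588036 to 38644087, minus strand) shares 405 exonic bases (11.8%) with Nek6.

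Because the inducible genes and the PA28 pair moved together with interferon, the windows around their RefSeq starts (GRCm38.p6, 250 bases before to 50 bases after the start) were searched for 2 short motifs on both strands. The first, GAAANNGAAA, is the core of the interferon-stimulated response element (ISRE), which type I interferon signalling uses, and 3.44% of all 32851 windows hold it. The second, TTCNNNGAA, is the core of the gamma-activated sequence (GAS) that IFNγ signalling uses, and 8.30% of all windows hold it. The 2 motifs can overlap but did not do so here. Windows were found for 8 of the 9 genes, 9 windows in all, since Psme2 has more than 1, and Psmb7 had no entry. One of the 9 windows held the first motif and another held the second, which in 9 windows cannot be told apart from the shares of all windows. A match is a description of the letters and not of a binding site. The 2 matching stretches, 30 bases each and read on the gene's strand, are shown with the motif in capitals. The Psmb8 stretch (chr17:34198088-34198117, plus strand) holds the GAS core from base -97 to base -89 relative to the RefSeq start, and the Psme1 stretch (chr14:55578493-55578522, plus strand) holds the ISRE core on the opposite strand from base 10 to base 19 after the start.
Psmb8: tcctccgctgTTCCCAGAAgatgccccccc
Psme1: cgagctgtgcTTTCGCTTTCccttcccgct

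The upstream stretches free of annotated exons are also given for Psmb10 and Psme2, which rose with both interferons, and for the constitutive Psmb5. They hold neither motif, and neither did the window of Psmb9. The Psmb10 stretch is chr8:105938445-105938642, the Psme2 stretch is chr14:55591114-55591351 and the Psmb5 stretch is chr14:54617996-54618245, all on the minus strand of GRCm38.p6. Their GC contents are 44.9%, 57.1% and 49.6%.
Psmb10: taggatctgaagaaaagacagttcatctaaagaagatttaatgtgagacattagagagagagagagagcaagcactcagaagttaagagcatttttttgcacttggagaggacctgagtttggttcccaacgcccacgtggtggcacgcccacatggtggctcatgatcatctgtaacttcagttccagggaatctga
Psme2: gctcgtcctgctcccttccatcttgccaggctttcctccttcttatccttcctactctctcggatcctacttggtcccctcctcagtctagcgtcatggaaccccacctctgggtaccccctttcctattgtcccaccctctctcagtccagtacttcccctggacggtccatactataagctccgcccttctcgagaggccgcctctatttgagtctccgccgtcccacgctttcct
Psmb5: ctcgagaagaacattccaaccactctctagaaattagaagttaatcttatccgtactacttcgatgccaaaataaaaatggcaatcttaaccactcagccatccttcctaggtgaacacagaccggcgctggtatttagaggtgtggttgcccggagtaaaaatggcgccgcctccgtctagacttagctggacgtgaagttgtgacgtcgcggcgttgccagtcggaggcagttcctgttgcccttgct

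IFNγ raised all 3 inducible subunits and the Psme1 and Psme2 pair in B16F10 cells. Psmb9 was at 105, 117 and 103 CPM with IFNγ, a log2 fold change of 6.48 (standard error 0.119) and 89.4-fold. It ranked 41st of the 21138 genes by log2 fold change. Psmb10 was at 598, 584 and 607 CPM, a log2 fold change of 4.08 (standard error 0.0636) and 16.9-fold. Psmb8 was at 10.1, 14.1 and 9.37 CPM, a log2 fold change of 3.48 (standard error 0.199) and 11.1-fold. For each of the 3 genes every IFNγ library was above every vehicle library. The adjusted p-values of edgeR's quasi-likelihood test were 7.99e-187 for Psmb9, 4.25e-212 for Psmb10 and 1.52e-49 for Psmb8.

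The genes of the cytoplasmic PA28 also rose with IFNγ in B16F10 cells, while Psme3 did not. Psme1 went from 63.7, 71.4 and 72.9 CPM with vehicle to 512, 514 and 497 CPM, a log2 fold change of 2.87 (standard error 0.0593). Psme2 went from 53.5, 54.7 and 62.9 CPM to 534, 538 and 555 CPM, a log2 fold change of 3.24 (standard error 0.06). Psme3 was at 266, 284 and 278 CPM with vehicle and at 256, 242 and 253 CPM with IFNγ, a log2 fold change of -0.14 (standard error 0.0533, edgeR adjusted p = 0.0345). Its call was lost under 7 alternatives, 5 of which left out 1 library (vehicle replicates 2 and 3 and each IFNγ replicate), with edgeR adjusted p-values up to 0.175. Of the 9 genes 5 were called higher and 1 lower with IFNγ in B16F10, against 12% of all genes tested called higher and 10.8% called lower. Fewer RNA molecules per cell and fewer cells of a kind cannot be told apart in bulk libraries.

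IFNβ raised the same 5 genes in B16F10 cells, to lower levels. Psmb9 was at 15.2, 17.9 and 18.6 CPM (log2 fold change 3.84, standard error 0.137) and Psmb10 at 172, 204 and 221 CPM (log2 fold change 2.50, standard error 0.0614). Psmb8 was at 2.1, 2.03 and 1.86 CPM, a log2 fold change of 1.01 (standard error 0.241, edgeR adjusted p = 0.000297). The Psmb8 libraries did not overlap those of vehicle but stayed near 2 CPM. Psme1 reached 302, 299 and 372 CPM and Psme2 reached 267, 250 and 290 CPM, log2 fold changes of 2.23 and 2.24. Psmb5 was at 170, 174 and 218 CPM against 224, 193 and 209 CPM with vehicle, so the groups overlapped. Its log2 fold change of -0.15 was called (edgeR adjusted p = 0.039) but was not called under 9 alternatives, 4 of which left out 1 library (vehicle replicates 1 and 3 and IFNβ replicates 1 and 2, adjusted p up to 0.313). With IFNβ 5 of the 9 genes were called higher and 1 lower, against 12.7% and 11.2% of all genes tested. Without IFNβ replicate 3, in which the constitutive subunits were highest, Psmb6 and Psmb7 were also called lower and 8 genes were called in all.

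The STING agonist moved fewer of these genes in B16F10 cells, and by less. Psme1 was at 112, 102 and 102 CPM, a log2 fold change of 0.59 (standard error 0.0587, edgeR adjusted p = 7.07e-19). Psme2 was at 84.4, 83.1 and 83 CPM, a log2 fold change of 0.54 (standard error 0.0594, edgeR adjusted p = 1.16e-15). Psmb10 was at 44.2, 43.7 and 43.6 CPM, a log2 fold change of 0.31 (standard error 0.0647, edgeR adjusted p = 0.000299). For each of these 3 genes every agonist library was above every vehicle library.

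Psmb8 was at 1.43, 1.47 and 1.8 CPM and Psmb9 at 2.03, 1.6 and 1.43 CPM with the agonist in B16F10. Neither change was called, with log2 fold changes of 0.65 (edgeR adjusted p = 0.206) and 0.46 (edgeR adjusted p = 0.334) on 24 to 37 reads per agonist library. Neither group overlapped vehicle, but with 3 libraries per group an exact permutation test cannot go below p = 0.1. In all, 3 of the 9 genes were called higher and 0 lower with STING agonist, against 1.93% and 1.53% of all genes tested. The 3 calls held under every alternative run. The epithelial marker sum was also raised in these libraries, as given above, and its part in the result was not tested. The mean levels of Psme1, Psme2 and Psmb10 in B16F10 cells with the agonist were 105, 83.5 and 43.8 CPM. In 6694c2 cells the means were lower with the agonist, at 66.9, 53.6 and 21.9 CPM. They were higher with IFNγ (569, 571 and 430 CPM) and with IFNβ (382, 369 and 362 CPM).

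**Figure D2:**
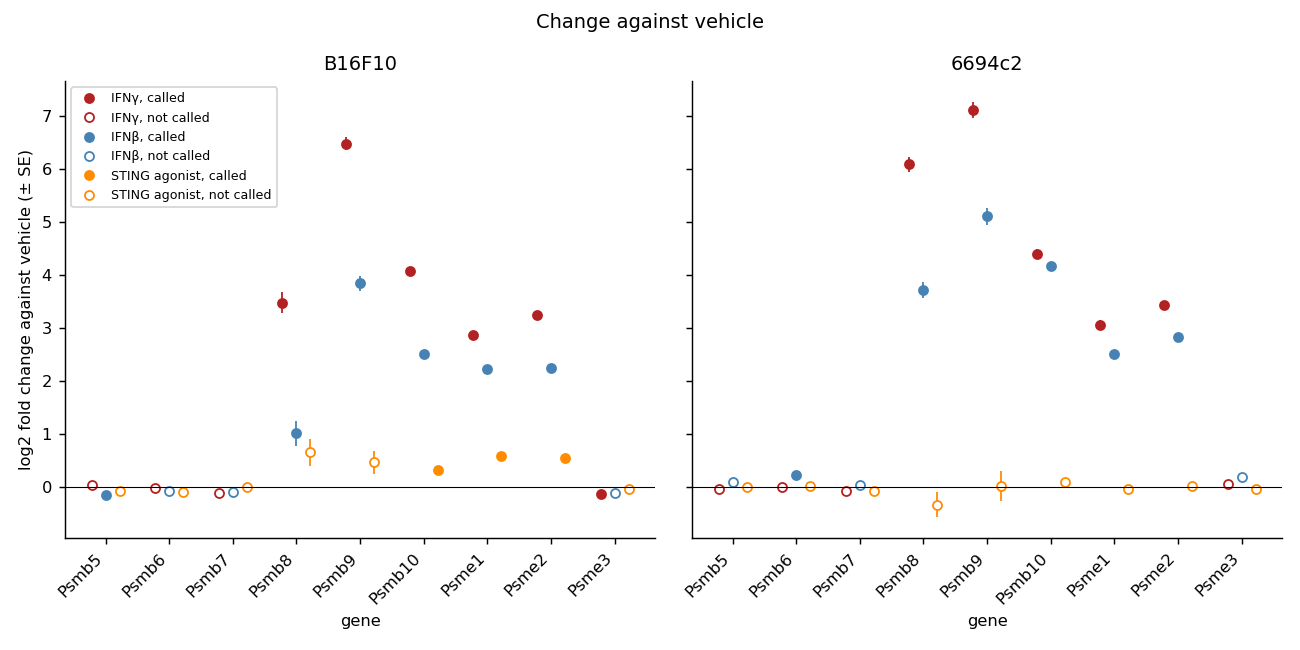
Log2 fold change of each gene against vehicle, with bars of 1 standard error, for IFNγ, IFNβ and STING agonist in B16F10 (left) and 6694c2 (right). Filled points were called at an edgeR adjusted p under 0.05 and open points were not. With STING agonist the called points are Psmb10, Psme1 and Psme2 in B16F10, at 0.31 to 0.59, and there are none in 6694c2.

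In 6694c2 cells IFNγ raised the same 5 genes, and the means of Psmb8 and Psmb9 were 39.2 and 34.4 CPM per kilobase of exon length (130 and 192 CPM per kilobase of coding length). In plain CPM, Psmb8 was at 110, 104 and 108 CPM, a log2 fold change of 6.09 (standard error 0.14, edgeR adjusted p = 5.44e-33). Psmb9 was at 124, 114 and 140 CPM, a log2 fold change of 7.12 (standard error 0.151, edgeR adjusted p = 3.68e-34), and ranked 34th of all genes tested. Psmb10 was at 419, 392 and 480 CPM, a log2 fold change of 4.40 (standard error 0.0851). Every treated library of these genes was above every vehicle library.

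Psme1 was at 59.8, 71.4 and 75.7 CPM with vehicle and at 616, 563 and 528 CPM with IFNγ in 6694c2, a log2 fold change of 3.06 (standard error 0.0828). Psme2 was at 51.2, 55.3 and 52.9 CPM with vehicle and at 573, 529 and 611 CPM with IFNγ, a log2 fold change of 3.44 (standard error 0.0739). Of the 9 genes 5 were called higher and 0 lower, against 7.89% and 5.66% of all genes tested. The constitutive subunits and Psme3 had log2 fold changes between -0.08 and 0.05, and their groups overlapped.

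With IFNβ in 6694c2 cells Psmb10 came close to its level with IFNγ, at 344, 366 and 377 CPM and a log2 fold change of 4.17 (standard error 0.0845). Psmb9 was at 28.6, 31.8 and 32.5 CPM (log2 fold change 5.11, standard error 0.163) and Psmb8 at 18, 23.2 and 20.7 CPM (log2 fold change 3.72, standard error 0.153). Psme1 was at 345, 403 and 398 CPM and Psme2 at 363, 355 and 389 CPM, log2 fold changes of 2.50 and 2.83. Psmb6 was at 281, 280 and 324 CPM against 229, 291 and 255 CPM with vehicle, a log2 fold change of 0.23 with overlapping groups (edgeR adjusted p = 0.0269). It was not called under 6 alternatives, among them the fits without vehicle replicate 1, vehicle replicate 3 or IFNβ replicate 3 (adjusted p of 0.191, 0.0891 and 0.203). Psme3 was at 228, 240 and 226 CPM against 225, 210 and 193 CPM, a log2 fold change of 0.18 (edgeR adjusted p = 0.0544), and was called under DESeq2, a robust fit and the fit without vehicle replicate 1. With IFNβ 6 of the 9 genes were called higher and 0 lower, against 10.4% and 7.86% of all genes tested.

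None of the 9 genes was called with STING agonist in 6694c2 cells, by edgeR or by DESeq2, and none had an unadjusted p under 0.05 in the edgeR test. Of all genes tested 0.203% were called higher and 0.156% lower. Psmb10 was at 21, 22.1 and 22.6 CPM, Psme1 at 70.4, 64 and 66.5 CPM and Psme2 at 54.3, 54.1 and 52.4 CPM, and each group overlapped vehicle. The log2 fold change ± 1.96 standard errors ran from -0.0763 to 0.257 for Psmb10, from -0.196 to 0.117 for Psme1 and from -0.123 to 0.155 for Psme2. For the sparse genes the intervals were wider, from -0.803 to 0.114 for Psmb8 and from -0.55 to 0.573 for Psmb9. The 3 treatments of a line share its 3 vehicle libraries, so their comparisons are not independent of each other.

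IFNγ and IFNβ were then compared directly within each line. In B16F10 the 3 inducible subunits were higher with IFNγ, by log2 differences of 2.64 for Psmb9 (standard error 0.0807), 2.47 for Psmb8 (standard error 0.176) and 1.57 for Psmb10 (standard error 0.0554). Psme1 and Psme2 were higher by 0.64 and 1.0. None of these 5 genes overlapped between the treatments, and the share of all genes without overlap was not counted. Psmb5 was also called, at 0.18, with overlapping groups. It was not called under 6 alternatives, among them the fits without IFNγ replicate 1, IFNβ replicate 1 or IFNβ replicate 2 (edgeR adjusted p of 0.0589, 0.106 and 0.136). This gave 6 of the 9 genes higher and 0 lower, against 7.85% and 6.65% of all genes tested.

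In 6694c2 the same 5 genes were higher with IFNγ than with IFNβ, but not by the same amounts. Psmb8 differed by 2.36 (standard error 0.0953) and Psmb9 by 2.01 (standard error 0.0915) on the log2 scale, while Psmb10 differed by 0.23 (standard error 0.07, edgeR adjusted p = 0.0193). The Psmb10 call was lost without IFNγ replicate 3 (adjusted p = 0.267) or without IFNβ replicate 1 (adjusted p = 0.0984). Psme1 and Psme2 differed by 0.56 and 0.61. Psmb6 was lower with IFNγ, at -0.23 (edgeR adjusted p = 0.0307), and lost its call under 5 of 13 alternatives. These were DESeq2, the filterByExpr minimum, all 24 libraries in one fit, and the fits without IFNγ replicate 2 or IFNβ replicate 3 (adjusted p from 0.0551 to 0.256). In all 5 genes were called higher and 1 lower, against 6.57% and 7.3% of all genes tested. Relative to the IFNγ mean, Psmb10 with IFNβ was at 84.2% in 6694c2 and at 33.4% in B16F10.

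The vehicle libraries of the lines were compared to place these changes on their starting levels. In 6694c2 cells Psmb10 was lower than in B16F10 (log2 difference -0.78, standard error 0.0847, edgeR adjusted p = 1.35e-10), as were Psmb7 (-0.56), Psme3 (-0.40) and Psmb5 (-0.31). These 4 genes did not overlap between the lines, and the share of all genes without overlap was not counted. Psmb8 was called higher at 0.68 (standard error 0.276, edgeR adjusted p = 0.0337), with overlapping groups. That call was lost in 5 of the 6 fits that left out a vehicle library, all but the one without 6694c2 replicate 3, and fell to 0.36 without 6694c2 replicate 1. Psme1 and Psme2 differed by -0.01 and -0.10 and were not called, nor was Psmb9 (-0.40). Thus 1 of the 9 genes was called higher and 4 lower in 6694c2, against 28.7% and 29.3% of all genes tested, so the 5 calls are close to the background share.

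The difference between the lines in each effect was tested in 1 fit over the 24 libraries, as the log2 fold change in 6694c2 minus that in B16F10. Psmb8 had the widest gap among the 9 genes with both interferons. Its difference was 2.59 for IFNγ (standard error 0.311, edgeR adjusted p = 5.51e-08) and 2.68 for IFNβ (standard error 0.331, edgeR adjusted p = 1.11e-07). Over the alternatives these differences ranged from 2.33 to 2.91 and from 2.42 to 3.0, and all were called. The mean level of Psmb8 in B16F10 with IFNγ, 11.2 CPM, was below its mean in 6694c2 with IFNβ, 20.6 CPM. The epithelial marker sum in the B16F10 IFNγ libraries was 0.208% of that in 6694c2 vehicle libraries.

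For IFNγ, Psmb8 was the 1 gene of the 9 called higher and 0 were lower, against 4.52% and 4.95% of all genes tested. Psmb9 (0.61, edgeR adjusted p = 0.246) and Psmb10 (0.31, adjusted p = 0.0725) were not called, and Psmb10 was called at 0.31 to 0.38 under 8 of 19 alternatives. These include the fits without B16F10 vehicle replicate 2, B16F10 IFNγ replicate 3 or 6694c2 IFNγ replicate 2. For IFNβ all 3 inducible subunits differed, by 1.24 for Psmb9 (standard error 0.306) and 1.64 for Psmb10 (standard error 0.11) beside Psmb8. Psme2 differed by 0.56 (standard error 0.0928) and Psme3 by 0.26 (edgeR adjusted p = 0.0285), a call lost under 4 alternatives, 2 of which left out 6694c2 vehicle replicate 3 or 6694c2 IFNβ replicate 2. This made 5 of the 9 genes higher and 0 lower, against 6.16% and 5.9% of all genes tested, and 8 were called without B16F10 IFNβ replicate 3.

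For the STING agonist Psme1 differed by -0.64 (standard error 0.117, edgeR adjusted p = 0.000461) and Psme2 by -0.54 (standard error 0.0958, edgeR adjusted p = 0.000342), both responding less in 6694c2. Thus 0 of the 9 genes were called higher and 2 lower, against 0.568% and 1.56% of all genes tested. Psmb10, called in B16F10 and not in 6694c2, had a difference of -0.23 that was not called (edgeR adjusted p = 0.43), with an interval of ± 1.96 standard errors from -0.455 to 0.00371.

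**Figure D3:**
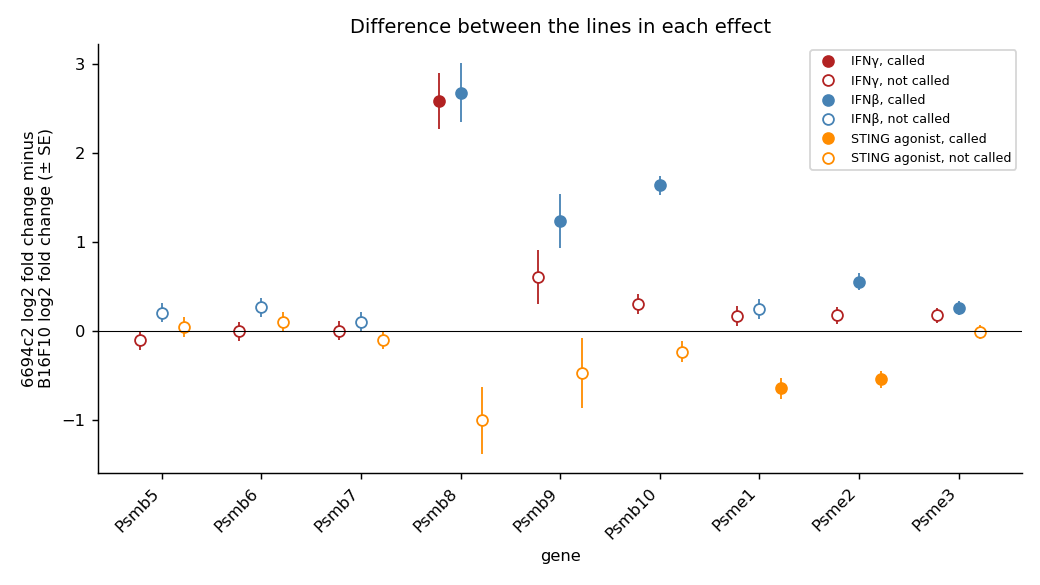
Difference between the lines in the effect of each treatment, as the log2 fold change in 6694c2 minus that in B16F10, with bars of 1 standard error. Filled points were called at an edgeR adjusted p under 0.05. Psmb8 sits at 2.59 and 2.68 for IFNγ and IFNβ, Psmb10 at 1.64 for IFNβ, and Psme1 and Psme2 are below 0 for the STING agonist.

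Levels were next compared between genes per kilobase, with no test. The length used was the summed exon length in the count files, which includes retained introns, and the longest coding length in GENCODE M21 was added as an alternative after seeing the data. With vehicle, Psmb10 transcripts were at 0.233, 0.242 and 0.242 of Psmb7 in the B16F10 libraries and at 0.21, 0.206 and 0.203 in 6694c2. With IFNγ the ratio was 4.34 ± 0.117 in B16F10 and 4.6 ± 0.348 in 6694c2 (SD, n = 3 each), so Psmb10 exceeded its constitutive counterpart in every library. With coding lengths these ratios were 2.19 and 2.33. With IFNβ the ratio was 1.45 ± 0.168 in B16F10 and 3.65 ± 0.518 in 6694c2, and with coding lengths 0.733 and 1.85. Whether Psmb10 exceeded Psmb7 with IFNβ in B16F10 therefore depended on the length used.

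Psmb9 stayed below Psmb6 in all groups on both lengths. Its ratio to Psmb6 was 0.00255 ± 0.00056 with vehicle and 0.234 ± 0.0208 with IFNγ in B16F10, and 0.00189 ± 0.000991 and 0.252 ± 0.013 in 6694c2 (SD, n = 3 each). With coding lengths the IFNγ ratios were 0.497 and 0.536. With IFNβ it was 0.0388 ± 0.00176 in B16F10 and 0.0538 ± 0.00375 in 6694c2.

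The ratio of Psmb8 to Psmb5 set the lines apart. With IFNγ it was 0.0146, 0.0216 and 0.0139 in the B16F10 libraries and 0.213, 0.221 and 0.204 in the 6694c2 libraries. With coding lengths the means were 0.0501 and 0.639. With IFNβ it was 0.00345 ± 0.000646 in B16F10 and 0.0376 ± 0.00288 in 6694c2, and with vehicle 0.00152 ± 2.55e-05 and 0.00304 ± 0.00141 (SD, n = 3 each). Coding lengths multiplied the ratio by 3 for Psmb8 to Psmb5, by 2.12 for Psmb9 to Psmb6 and by 0.506 for Psmb10 to Psmb7 in every group alike.

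Psme1 and Psme2, whose products assemble with each other, were compared per kilobase. The ratio of Psme1 to Psme2 was 0.973 ± 0.0623 with vehicle and 0.748 ± 0.0288 with IFNγ in B16F10, and 1.04 ± 0.106 and 0.799 ± 0.0939 in 6694c2 (SD, n = 3 each). With IFNβ it was 0.96 ± 0.0611 in B16F10 and 0.827 ± 0.0742 in 6694c2. The IFNγ libraries were all below the vehicle libraries in both lines, as were the IFNβ libraries in 6694c2, while the IFNβ libraries in B16F10 and the STING agonist libraries of both lines overlapped vehicle. On coding lengths the ratio was 1.17 with vehicle and 0.899 with IFNγ in B16F10, and 1.24, 0.961 and 0.993 with vehicle, IFNγ and IFNβ in 6694c2.

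The summed share of Psmb8, Psmb9 and Psmb10 among the 6 catalytic subunit transcripts was 4.5% ± 0.124 with vehicle and 45.8% ± 0.49 with IFNγ in B16F10 (SD, n = 3 each). In 6694c2 it was 3.22% ± 0.151 with vehicle and 46.4% ± 1.2 with IFNγ. With IFNβ the share was 22.6% ± 1.23 in B16F10 and 35.4% ± 0.788 in 6694c2, and the libraries of the lines did not overlap. With STING agonist it was 5.59%, 5.59% and 6.16% in the B16F10 libraries, above the vehicle libraries at 4.37%, 4.61% and 4.52%. In 6694c2 it was 3.11%, 3.52% and 3.55% with the agonist, overlapping vehicle at 3.39%, 3.13% and 3.13%. These are shares of transcripts, and the subunits' proteins were not measured here.

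**Figure D4:**
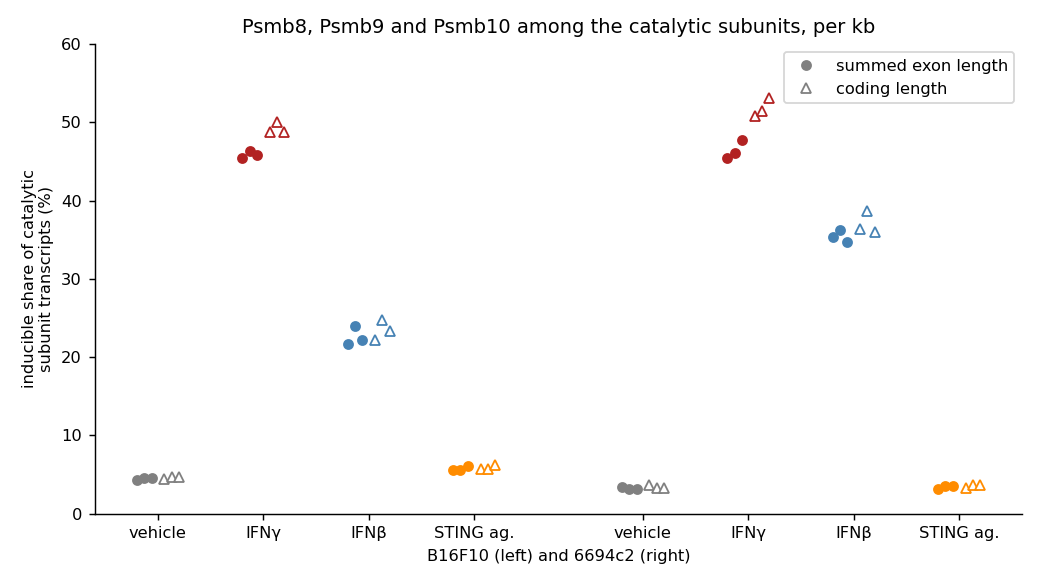
Share of Psmb8, Psmb9 and Psmb10 in the summed per-kilobase level of the 6 catalytic subunits, in percent, for every library. Circles use the exon length in the count files and open triangles the coding length. The share is 4.5% and 3.22% with vehicle, 45.8% and 46.4% with IFNγ, and 22.6% and 35.4% with IFNβ in B16F10 and 6694c2 on the exon length.

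The makeup of that share differed between the lines. With IFNγ in B16F10, Psmb10 made up 91.2% ± 0.871 of the inducible transcripts, Psmb9 7.73% ± 0.62 and Psmb8 1.07% ± 0.252. With IFNγ in 6694c2, Psmb10 made up 77.4% ± 0.842, Psmb9 10.5% ± 0.132 and Psmb8 12.1% ± 0.929 (SD, n = 3 each). With coding lengths Psmb9 and Psmb8 took 18.2% and 1.49% in B16F10 and 22.6% and 15.4% in 6694c2. With vehicle Psmb10 made up 96.8% in B16F10 and 93.5% in 6694c2.

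Other parts of the proteasome moved little beside the inducible subunits. Of 11 other core subunits, 8 were called higher with IFNγ in B16F10 (median log2 fold change 0.29, against 0 over all genes tested) and 3 in 6694c2 (median 0.08), with none lower in either, against 12% and 7.89% of all genes called higher. Psma5, an alpha ring subunit, changed most in both, at 0.94 in B16F10 and 0.43 in 6694c2, from 163 to 312 CPM and from 264 to 353 CPM. Psma2, of the same ring, was at 0.45 in B16F10 and 0.28 in 6694c2, and Psmb4, of the beta ring, at 0.32 and 0.35. With IFNβ 2 of the 11 were called higher and 2 lower in B16F10, led by Psma1 at -0.31 and Psma5 at 0.25, which is close to the 12.7% and 11.2% of all genes. In 6694c2, 6 were called higher, led by Psma3 at 0.38 and Psma2 at 0.32, against 10.4% of all genes. With STING agonist none of the 11 was called in either line.

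In each comparison with vehicle most genes of the 19S regulatory particle, which recognises and unfolds ubiquitin-tagged proteins, were not called. Of its 19 genes 3 were called lower with IFNγ and 7 with IFNβ in B16F10, against 10.8% and 11.2% of all genes, so the IFNγ count is near the background share. There Psmd6 was at -0.17 and -0.28, Psmc6 at -0.19 and -0.22, and Sem1 at -0.29 with IFNβ. In 6694c2, 2 were called higher with IFNγ and 6 with IFNβ, against 7.89% and 10.4% of all genes, and the IFNγ count is again near that share. There Psmd3 was at 0.21 and 0.32, Adrm1 at 0.20 with IFNγ and Psmd4 at 0.28 with IFNβ. The difference between the lines in the IFNβ effect was called for 5 of the 19, all higher in 6694c2, against 6.16% of all genes. The medians stayed between -0.12 and 0.11, and with STING agonist none was called.

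Among 11 assembly factors and other regulators that were tested, Pomp, the maturation factor that newly made cores need, rose with IFNγ in both lines. It went from 193 to 275 CPM in B16F10 (log2 fold change 0.51, standard error 0.0549) and from 132 to 184 CPM in 6694c2 (0.50, standard error 0.0786). With IFNβ Pomp was called lower in B16F10 (-0.22) and was at 0.05 in 6694c2, not called. Psmg4, a core assembly chaperone, rose with IFNγ by 0.63 and 0.95 in B16F10 and 6694c2 and with IFNβ by 0.73 in 6694c2. Psmf1, a proteasome inhibitor, rose in B16F10 by 0.61 with IFNγ and 0.27 with IFNβ, and in 6694c2 by 0.22 with each interferon. Ecpas, a proteasome adaptor, rose in B16F10 by 0.41 with IFNγ and 0.37 with IFNβ, and Psmd9, an assembly chaperone of the 19S particle, rose in 6694c2 with IFNβ by 0.26. Psme4, the PA200 activator, fell in 6694c2 by 0.24 with IFNγ and by 0.25 with IFNβ, and was at -0.01 and -0.05 in B16F10, not called. In counts, 4 of the 11 were higher with IFNγ and 2 higher and 1 lower with IFNβ in B16F10, 3 higher and 1 lower with each interferon in 6694c2, and none was called with STING agonist. The shares of all genes called higher in these interferon comparisons were 12%, 12.7%, 7.89% and 10.4%. Those called lower were 10.8%, 11.2%, 5.66% and 7.86%. The IFNβ counts in B16F10 and each count of 1 lower, which in 6694c2 was Psme4, are near the background.

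The tissue-restricted core subunits were near absent. Psma8, found in testis, had 0 reads in all libraries, and Psmb11, found in thymic epithelium, averaged 0.14 CPM with IFNγ in B16F10 and was at 0 in the other groups.

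Genes that act after the proteasome rose as well. All 8 listed genes of class I peptide transport, trimming, presentation and transcription were called higher with each interferon in both lines, with medians of 3.86 (IFNγ) and 3.02 (IFNβ) in B16F10 and 4.23 and 4.03 in 6694c2. The shares of all genes called higher were 12% and 12.7% in B16F10 and 7.89% and 10.4% in 6694c2. Tap1, a subunit of the peptide transporter, went from 6.79 to 271 CPM with IFNγ in B16F10 (log2 fold change 5.30) and from 2.7 to 384 CPM in 6694c2 (7.17), and rose by 4.38 and 6.30 with IFNβ. Nlrc5, the class I transactivator, rose by 6.52 and 7.84 with IFNγ in B16F10 and 6694c2 and by 4.59 and 7.20 with IFNβ. Tap2, the other transporter subunit, rose by 6.44 and 6.61 with IFNγ and by 3.68 and 4.53 with IFNβ. With STING agonist 6 of the 8 were called higher in B16F10 (median 0.58), against 1.93% of all genes, and none in 6694c2 (median -0.00), where 0.203% of all genes were called higher. Tapbp, which bridges the transporter and class I, rose by 0.81 and B2m, the class I light chain, by 0.75 in B16F10.

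Of 8 regulators, 7 were called higher with IFNγ and 6 with IFNβ in B16F10, and 8 and 6 in 6694c2, against 12%, 12.7%, 7.89% and 10.4% of all genes. Irf1, an interferon-induced transcription factor, went from 12.3 to 637 CPM with IFNγ in B16F10 and from 22.2 to 573 CPM in 6694c2. Stat2 rose by 3.78 with IFNγ and 4.16 with IFNβ in B16F10, and by 3.56 and 4.70 in 6694c2. With STING agonist 4 of the 8 were called higher in B16F10, with Stat2 at 1.04, and none in 6694c2, against 1.93% and 0.203% of all genes.

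The genes whose profiles were most like those of the members were found by Pearson's correlation of log2 CPM over the 24 libraries, after each line's mean was taken out, among 9325 genes with a mean of at least 10 CPM. For Psmb9 they were Cd274 (r = 0.996), Tap2 (0.9948) and Igtp (0.9922). For Psmb10 they were Irgm1 (0.9942), Erap1 (0.993) and Nampt (0.9929), and for Psme2 Irgm1 (0.9961), Erap1 (0.9946) and Cd274 (0.9913). For Psmb8 they were Bak1 (0.982), Il13ra1 (0.9802) and C4b (0.9756). These libraries share their treatments, so many interferon-raised genes have high values, and C4b has a near-identical copy with which its reads may be shared.

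Psme2b, a near-identical copy of Psme2, had 2.61% to 6.95% of the Psme2 level over the libraries and reads may be split between them. Adding its reads to Psme2 changed no call. The pseudogene copies of Psmb5, Psmb6 and Psmb7 did not exceed 0.117 CPM in any library.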

How the data were processed

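RNA from 2 mouse tumor lines treated in culture was sequenced in 24 libraries. The study's methods give adaptor trimming with cutadapt, alignment with STAR and counting with Rsubread. Strand and multi-mapping settings for these counts are not given in the sources used here. The counts deposited by the authors are raw reads per Ensembl gene. The outer starts and ends of the 9 genes match GENCODE M21 on GRCm38 within 27 bases. Depth ran from 15543131 to 32266795 reads.

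Genes with at least 10 reads combined were tested with edgeR 4.0.16 (quasi-likelihood, TMM, R 4.3.3) on the 12 libraries of a line, and on all 24 for comparisons between lines. P-values were adjusted over 21138 genes by Benjamini-Hochberg and called under 0.05. Each standard error is the log2 fold change over the root of its F value. In B16F10 the spread was almost wholly shared across genes (400 prior against 8 residual degrees of freedom), and p-values can be very small. With 3 libraries per group an exact permutation test of 1 value cannot go below p = 0.1. The share of all genes whose groups did not overlap was not counted, so non-overlap is given only as a description of single genes. The script was tested on simulated data. DESeq2 1.42.0 and the other settings in the closing section were alternatives.

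The 9 genes, the lists and the rule for named genes were chosen with earlier results of these data known. The rule takes all members, the 2 largest called changes of each list per comparison with vehicle, Tap1, Pomp, Psme4, Psma8 and Psmb11, and the 3 most alike genes. The 6 single-cell samples were not analysed here. Some items that these rules would name are not reported here.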

Additional observations from a re-analysis of the deposited data

Results flagged for a closer look

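The effect of a treatment differed between the lines for several of the 9 genes, by the test of the difference itself over 24 libraries (6694c2 minus B16F10, log2 scale, edgeR's quasi-likelihood test). Psmb8 differed by 2.59 for IFNγ and 2.68 for IFNβ. For IFNβ, Psmb10 differed by 1.64, Psmb9 by 1.24, Psme2 by 0.56 and Psme3 by 0.26. For the STING agonist, Psme1 differed by -0.64 and Psme2 by -0.54. Groups of 3 libraries were too small to look for single libraries that stand apart.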

How the results depend on the processing

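Each member was refitted in each comparison under the alternative settings. In 1562 of these fits the value stayed on its side of the threshold, 45 lost the call, 25 gained it and none turned the sign of a called value, while some uncalled values near 0 changed sign. Calls that no alternative changed include those of Psmb8, Psmb9, Psmb10, Psme1 and Psme2 for a treatment against vehicle within a line. The number of members called for the difference between the lines in the IFNγ effect was 1, and it was 3 with DESeq2 and 2 with RLE size factors, no filter on low counts, a robust fit or only the libraries of the groups compared. Leaving out 1 library at a time gave 1 to 2 there and 4 to 8 for the IFNβ effect. With coding lengths the inducible share was 49.2% in B16F10 and 51.8% in 6694c2 with IFNγ, 37% in 6694c2 with IFNβ and 3.39% in 6694c2 with vehicle. The cause of these shifts was not tested, other than the changed lengths. With a replicate block the number of members called stayed at 6 with IFNγ in B16F10, at 3 with STING agonist in B16F10 and at 5 with IFNγ in 6694c2, and it changed no call of a member in any comparison. No pairing of libraries by replicate number was found. Deviations of same-numbered libraries correlated at -0.323 to 0.245 and 23 of 72 checks had the own number highest. With 3 libraries per group this check cannot show that the libraries were unpaired. Coding lengths from a RefSeq protein table were not run, since no such table was used here. Depth limits Psmb8 and Psmb9 without interferon, where 11 to 38 reads per library were counted in the vehicle and STING agonist groups.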
